A study of Mus musculus with 15 samples.

Results

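The 37 genes described here encode proteins that copy DNA in S phase or divide the chromosomes in mitosis. They were chosen by name, as 16 replication genes and 21 mitosis genes whose symbols were listed in the count tables with at least 15 counts over all 15 libraries. All 37 met this rule, out of 21516 gene symbols in the tables, and all 37 also had enough counts to be among the 9390 genes tested. Their summed counts ran from 177 for Kif20a to 19128 for Top2a.

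The libraries came from mouse embryonic stem cells of a single reporter line, REX-1 RFP, in which the promoter of Rex1, a gene active in undifferentiated cells, drives a red fluorescent protein. Each culture was expanded in medium with LIF (leukaemia inhibitory factor, the cytokine that keeps mouse stem cells undifferentiated) and then held in its condition for 72 h. The NS group (normal stemness) kept LIF and received no sorbitol. The ND group (normal differentiation) was held without LIF and without sorbitol. In the remaining 3 groups LIF was present and sorbitol, a sugar alcohol used to make medium hyperosmotic, was added to 200, 250 or 300 mM. Each group had 3 libraries, described as biological triplicates, prepared from total RNA by a 3' end method in which a transcript gives about 1 tag whatever its length. Levels are given in CPM, counts scaled to a common library total after TMM correction.

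Progress through the cell cycle is driven by cyclin-dependent kinases and their cyclins. Before S phase the MCM helicase is loaded onto replication origins by Cdc6 and Cdt1, and E2F factors switch on many replication genes. Mitosis genes are switched on later, largely through promoters that hold a CCAAT box and a cell cycle homology region (CHR), and many of their products are destroyed at anaphase by the anaphase-promoting complex. Mouse embryonic stem cells are known for a short G1 phase and a large share of cells in S phase.

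The promoters show how the replication and mitosis genes differ in sequence, so both kinds are printed. RefSeq (GRCm38.p6) gave a promoter of 300 bases, 250 before and 50 after the gene start, for 31 of the 37 genes. Searched on both strands, the CCAAT box (CCAAT) was present in 15 of 16 mitosis promoters (93.8%), in 9 of 15 replication promoters, and in 37.9% of all 27025 promoters of this length. The CHR (TTTGAA) was present in 12 of 16 mitosis promoters (75.0%), in 1 of 15 replication promoters (6.67%, Mcm2), and in 18.1% of all promoters. An E2F site (TTTCGCGC, TTTGGCGC or TTTCCCGC) was present in 7 of 15 replication promoters (46.7%), in 1 of 16 mitosis promoters (6.25%, Cdk1), and in 1.91% of all promoters. Among the 6808 promoters of tested genes the shares were 39.9% for CCAAT, 11.3% for CHR and 4.26% for E2F. A match describes the letters of the window and is not evidence of binding.

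For replication, the helicase gene Mcm5 (chr8:75109259-75109558, plus strand) and the sliding clamp gene Pcna (chr2:132253131-132253430, minus strand) are shown 5' to 3' on the gene's strand, with every motif match in capitals. In Mcm5 the capitals are 3 CCAAT boxes and a run of 2 overlapping E2F sites that lie on opposite strands. In Pcna they are 1 CCAAT box read on the opposite strand (ATTGG).
Mcm5: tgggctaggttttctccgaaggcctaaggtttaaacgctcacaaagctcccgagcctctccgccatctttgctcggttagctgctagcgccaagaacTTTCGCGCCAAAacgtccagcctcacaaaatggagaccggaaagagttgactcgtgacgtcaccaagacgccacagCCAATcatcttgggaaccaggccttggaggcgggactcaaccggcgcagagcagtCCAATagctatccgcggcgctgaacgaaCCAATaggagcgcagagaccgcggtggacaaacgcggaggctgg
Pcna: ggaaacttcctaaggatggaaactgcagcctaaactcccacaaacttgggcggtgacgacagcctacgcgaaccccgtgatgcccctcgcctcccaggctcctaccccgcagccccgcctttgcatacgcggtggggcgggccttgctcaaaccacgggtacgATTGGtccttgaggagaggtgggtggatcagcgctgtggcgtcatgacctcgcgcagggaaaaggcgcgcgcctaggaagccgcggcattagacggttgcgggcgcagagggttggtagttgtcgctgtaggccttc

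For mitosis, Ccnb1 (chr13:100786437-100786736, minus strand), Plk1 (chr7:122159185-122159484, plus strand) and Cdc20 (chr4:118437294-118437593, minus strand) are shown in the same way, together with Top2a (chr11:99024140-99024439, minus strand) and Cenpf (chr1:189688037-189688336, minus strand), the genes on which the expression results turn. These last promoters were added after the expression values were seen. Capitals mark CCAAT or ATTGG for the CCAAT box and TTTGAA or TTCAAA for the CHR. Top2a held 6 CCAAT boxes and 2 CHR matches, Cenpf 2 and 1, Cdc20 2 and 1, and Plk1 1 and 1. Ccnb1 held 2 CCAAT boxes and no CHR match in this window.
Ccnb1: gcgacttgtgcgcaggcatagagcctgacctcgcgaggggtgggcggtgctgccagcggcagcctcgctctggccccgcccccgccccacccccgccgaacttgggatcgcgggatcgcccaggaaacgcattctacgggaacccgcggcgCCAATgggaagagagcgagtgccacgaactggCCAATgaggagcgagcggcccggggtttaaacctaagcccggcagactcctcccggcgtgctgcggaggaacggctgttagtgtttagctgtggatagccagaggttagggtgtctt
Plk1: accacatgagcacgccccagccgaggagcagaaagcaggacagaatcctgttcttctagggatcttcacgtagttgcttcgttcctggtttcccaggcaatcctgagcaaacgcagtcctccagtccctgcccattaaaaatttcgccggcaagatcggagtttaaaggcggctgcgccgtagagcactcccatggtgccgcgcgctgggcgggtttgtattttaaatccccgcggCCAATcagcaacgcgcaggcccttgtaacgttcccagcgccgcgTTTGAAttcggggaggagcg
Cdc20: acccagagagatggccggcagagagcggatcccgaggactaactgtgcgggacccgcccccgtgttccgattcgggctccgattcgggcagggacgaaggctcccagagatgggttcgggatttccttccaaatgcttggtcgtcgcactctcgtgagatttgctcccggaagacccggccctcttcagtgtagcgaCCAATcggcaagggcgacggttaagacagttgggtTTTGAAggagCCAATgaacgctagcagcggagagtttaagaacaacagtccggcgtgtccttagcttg
Top2a: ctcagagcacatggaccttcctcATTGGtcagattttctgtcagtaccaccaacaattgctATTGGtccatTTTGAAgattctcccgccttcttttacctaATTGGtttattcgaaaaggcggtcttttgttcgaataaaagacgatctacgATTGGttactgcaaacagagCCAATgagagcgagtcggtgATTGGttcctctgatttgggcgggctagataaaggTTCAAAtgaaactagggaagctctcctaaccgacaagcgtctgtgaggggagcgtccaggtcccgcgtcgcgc
Cenpf: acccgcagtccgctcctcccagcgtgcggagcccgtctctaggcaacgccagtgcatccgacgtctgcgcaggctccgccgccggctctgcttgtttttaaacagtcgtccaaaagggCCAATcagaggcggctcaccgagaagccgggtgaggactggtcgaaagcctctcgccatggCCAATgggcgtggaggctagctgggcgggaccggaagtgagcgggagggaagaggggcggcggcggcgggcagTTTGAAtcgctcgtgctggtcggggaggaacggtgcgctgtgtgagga

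The libraries held 968556 to 2289528 counts in all. Depth was greatest in replicate 1 of each group, with at least 1872918, against at most 1229075 in replicates 2 and 3, and 3 counts corresponded to 1.42 to 3.58 CPM. All 8 markers of undifferentiated stem cells were detected, at a summed level of 1568 to 2218 CPM in NS and 1188 to 1721 in ND. It was 2050 to 2575 CPM at 200 mM, 1806 to 2570 at 250 mM and 1717 to 2681 at 300 mM. Their median log2 change for the sorbitol mean against NS was 0.44, with 3 of 8 negative and 0 past the threshold. Of 8 fibroblast or feeder markers, Col3a1, Lum and Postn were at 0 in all libraries, and the summed level of the list was 2.38 to 36.99 CPM. Acta2, with 114 counts in all, had means of 0.303 CPM in NS, 3.302 in ND and 0.332 at 200 mM. It had 4.458 ± 5.787 CPM at 250 mM and 15.036 ± 13.138 at 300 mM (SD). Its log2 change against NS at 300 mM was 5.59 ± 1.27 (adjusted p = 0.0149 by edgeR's quasi-likelihood test). The summed level of 8 trophoblast markers, all detected, was 32.7 to 54.4 CPM in NS, 65.7 to 125 in ND, 137 to 410 at 200 mM, 320 to 460 at 250 mM and 262 to 399 at 300 mM. Krt8 and Krt18 held most of it, with means of 119 and 150 CPM at 250 mM. Gata2, Plac1 and Hand1 were also higher with sorbitol than in NS, while Cdx2 and Elf5 had 20 and 14 counts over all libraries. For 8 endoderm markers, all detected, it was 39.2 to 49.99 CPM in NS, 27.9 to 51.6 in ND, 65.9 to 104 at 200 mM, 87.9 to 147 at 250 mM and 124 to 171 at 300 mM. The summed trophoblast and endoderm levels and Acta2 moved with sorbitol beside the falls given below, and their part in those falls was not tested. In bulk RNA, fewer cells of a kind and less RNA per cell cannot be told apart.

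The NS libraries did not behave alike. The median of 72 ribosomal protein genes, on log2(CPM + 1) against each gene's mean over the 15 libraries, was -0.49 in NS 1 and -0.46 in NS 2 but 0.16 in NS 3. It was 0.84 in ND 2 and between -0.12 and 0.14 in the other 11 libraries. On the same scale the median of the 21 mitosis genes was -0.04 in NS 1, -0.15 in NS 2 and 0.48 in NS 3, and 19 of the 21 lay above their 15-library mean in NS 3 against 9 in NS 1 and 7 in NS 2. The median of the 16 replication genes showed no such gap, at 0.15, 0.21 and 0.19, but the single genes split in both directions. NS 3 was the lowest NS library for 8 of them, among them Mcm7 and Cdk4, and the highest for 8, among them Mcm4 and Cdk2. The median fold of highest over lowest NS library was 1.78 for replication genes, 1.75 for mitosis genes and 1.81 for all tested genes. The members' comparisons with NS are therefore given with and without NS 3 where that changes a call, and the comparison with ND is given beside them.

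**Figure D1:**
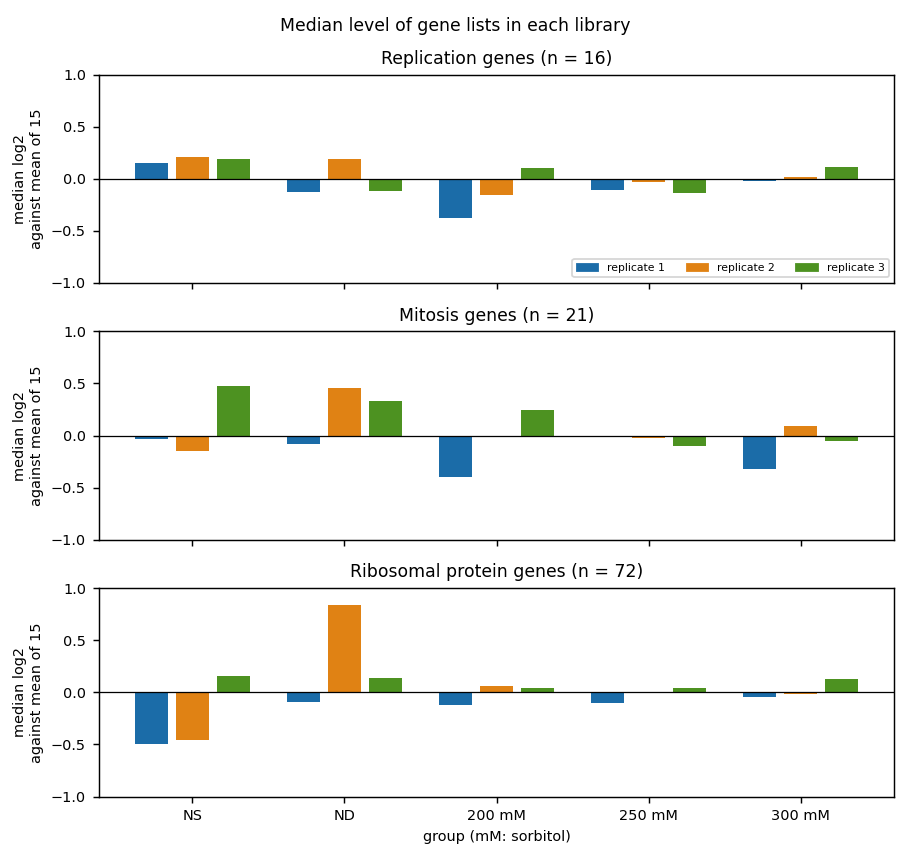
Bars give, for each of the 15 libraries, the median of a gene list on log2(CPM + 1) against each gene's mean over all libraries, coloured by replicate number. The mitosis median of NS 3 (0.48) stands apart from NS 1 (-0.04) and NS 2 (-0.15), as does its ribosomal protein median (0.16 against -0.49 and -0.46).

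Top2a and Cenpf were the members that fell with sorbitol against both controls, the cells with LIF and the cells without it. Top2a, which encodes the topoisomerase that untangles sister chromosomes, had 1386, 1328 and 1122 CPM in NS replicates 1, 2 and 3 and 1248, 1441 and 1092 CPM in ND. It had 923, 902 and 669 CPM at 200 mM, 532, 599 and 590 CPM at 250 mM, and 579, 549 and 485 CPM at 300 mM. All 9 sorbitol libraries lay below all 6 libraries without sorbitol, and the 200 mM libraries lay above those of both higher doses. Group means were 1279 ± 138 CPM in NS, 1260 ± 175 in ND, 831 ± 141 at 200 mM, 573 ± 36.4 at 250 mM and 538 ± 47.7 at 300 mM (SD, n = 3).

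Averaged over the 3 sorbitol groups, Top2a was at 0.497 of the NS level (log2 change -1.01 ± 0.16 SE, adjusted p = 0.0014 by edgeR's quasi-likelihood test) and at 0.504 of the ND level (-0.99 ± 0.16, adjusted p = 0.000877). By dose against NS, its log2 change was -0.62 ± 0.20 at 200 mM (adjusted p = 0.222), -1.16 ± 0.21 at 250 mM (0.00637) and -1.25 ± 0.21 at 300 mM (0.00275). Between ND and NS it was -0.02, with a 95% interval from -0.45 to 0.41. The calls at 250 and 300 mM and for both means held with any library left out. With NS 3 as the only control the Top2a change was -0.78 for the mean and did not pass (adjusted p = 0.208, range over its 20 alternatives 1.68e-08 to 0.208), while against ND it passed in 19 of 19 alternatives.

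Cenpf encodes a large protein of the kinetochore and nuclear matrix that accumulates in G2 and mitosis. It had 181, 167 and 192 CPM in NS, 218, 189 and 210 in ND, 163, 149 and 114 at 200 mM, 104, 97.6 and 102 at 250 mM, and 99.0, 78.3 and 104 at 300 mM. Here too the 9 sorbitol libraries lay below the 6 others. The mean over sorbitol was 0.614 of NS (log2 change -0.70 ± 0.16, adjusted p = 0.0132) and 0.538 of ND (-0.89 ± 0.16, adjusted p = 0.00182). By dose the log2 change against NS was -0.34 ± 0.20 at 200 mM (adjusted p = 0.594), -0.83 ± 0.21 at 250 mM (0.0310) and -0.94 ± 0.21 at 300 mM (0.0123). The call at 250 mM was lost without NS 1 (0.105), NS 2 (0.0855) or any of the 250 mM libraries (0.103 to 0.124), that at 300 mM without 300 mM replicate 2 (0.0815), and that of the mean against NS without NS 1 (0.0731) or NS 2 (0.0531). Against ND it passed in 19 of 19 alternatives.

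The authors' deposited table of edgeR results gave an FDR of 0.00117 for Top2a at 250 mM, with a log2 change of -1.15, and of 0.000252 at 300 mM, with -1.23. For Cenpf it gave an FDR of 0.0574 at 250 mM (-0.82) and of 0.0188 at 300 mM (-0.92). No other member had a deposited FDR under 0.05. At 250 mM 1 of 37 members was under 0.05, where 595 of all 21516 genes were. At 300 mM 2 of 37 members were, where 935 of all 21516 genes were.

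**Figure D2:**
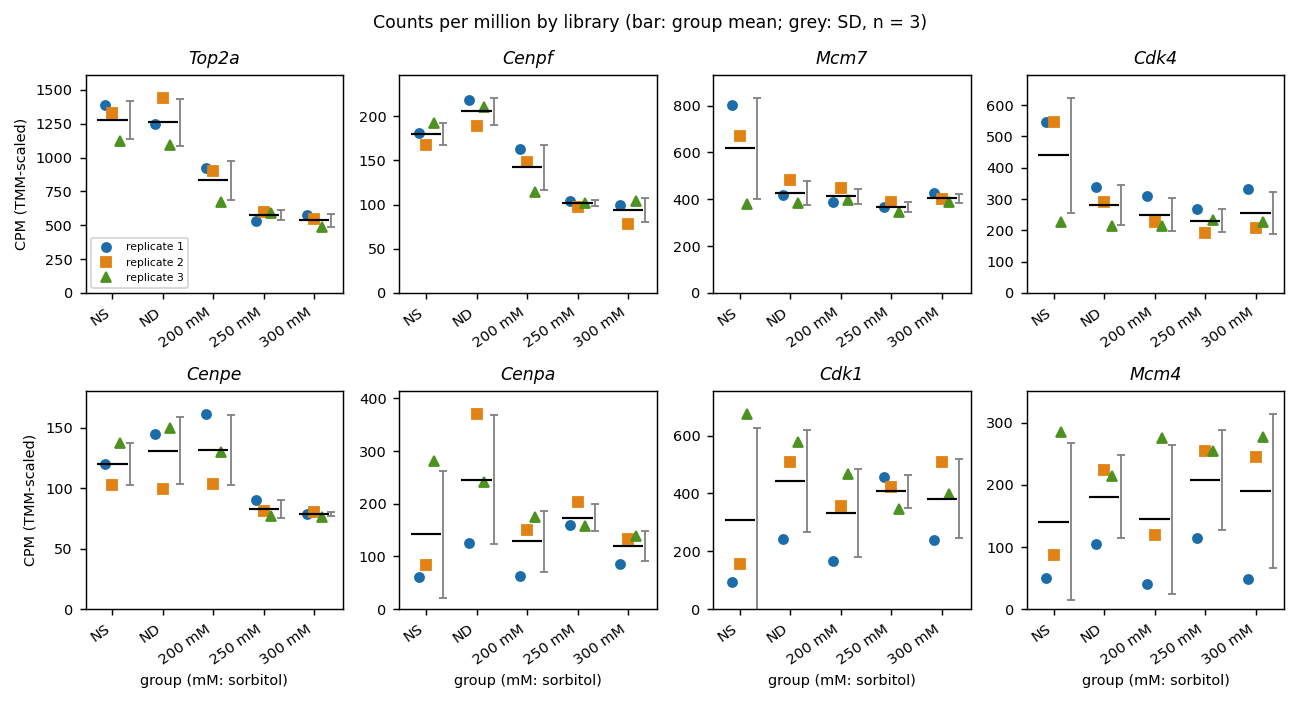
Points are the CPM values of the 3 libraries per group for 8 members, with the group mean (black bar) and SD (grey). Top2a and Cenpf are lower in all 9 sorbitol libraries than in all 6 others; Mcm7 and Cdk4 are high in NS 1 and NS 2 alone; Cenpe is lower at 250 and 300 mM than at 200 mM; Cenpa, Cdk1 and Mcm4 spread widely within groups.

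Against NS, the mean of the sorbitol groups was past the threshold for 4 of 37 members, all lower, where 8.78% of all 9390 genes passed and 5.45% were lower. The 4 were Top2a and Cenpf among the mitosis genes and Mcm7 and Cdk4 among the replication genes. With a replicate block Aurka and Rrm2 also passed, both lower (adjusted p = 0.0180 and 0.00212), where 21.5% of all genes passed. Mcm7, a subunit of the replicative helicase, had 801, 671 and 379 CPM in NS, 417, 481 and 383 in ND, 390, 448 and 398 at 200 mM, 368, 389 and 347 at 250 mM, and 425, 402 and 387 at 300 mM. NS 1 and NS 2 stood above every other library, and NS 3 lay within the range of the sorbitol libraries. Cdk4, the G1 kinase that acts with D-type cyclins, had 546, 544 and 228 CPM in NS, 337, 291 and 212 in ND, 310, 226 and 212 at 200 mM, 267, 192 and 233 at 250 mM, and 331, 209 and 227 at 300 mM. Its NS libraries split in the same way, and NS 3 overlapped the sorbitol libraries.

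The mean sorbitol level was 0.639 of NS for Mcm7 (log2 change -0.65 ± 0.19, adjusted p = 0.0410) and 0.558 of NS for Cdk4 (-0.84 ± 0.24, adjusted p = 0.0403). Both calls were lost without NS 1 (0.337 for Mcm7, 0.247 for Cdk4) or NS 2 (0.201 and 0.250), and each without 7 of the 9 sorbitol libraries in turn (0.0524 to 0.0732 for Mcm7, 0.0518 to 0.0779 for Cdk4). With NS 3 as the only control the log2 changes were 0.09 and 0.15. Against ND they were -0.11 ± 0.19 and -0.19 ± 0.25, with adjusted p of 0.774 and 0.697. For both genes the fall against NS rested on NS 1 and NS 2, the libraries with the lowest ribosomal protein medians. In the tables Cdk4 carries the Ensembl identifier of Defb1, and Mcm2 that of Mcm7, so these genes rest on their symbols.

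Against ND, 2 of 37 members passed, Top2a and Cenpf, both lower, where 10.5% of all genes passed and 5.85% were lower. The replicate numbers paired ND with 200 mM, and with a replicate block 6 members passed, all lower, where 19.5% of all genes did. The block added Aurka (0.0205), Rrm2 (0.0406), Cenpa (0.0436) and Bub1 (adjusted p = 0.0470). Without it, Aurka, Cenpe, Ccnb1 and Cdc6 were lower at an unadjusted p under 0.05, which made 6 of 37 members with Top2a and Cenpf, where 13.4% of all genes were lower at that level. In 3 members, Top2a, Cenpf and Cdc6, all 9 sorbitol libraries lay below all 3 ND libraries, where 4.13% of all genes did so. Cdc6, which loads the helicase at origins, had 150 to 166 CPM in ND and 109 to 143 CPM with sorbitol (log2 change -0.35 ± 0.16, adjusted p = 0.178). Against NS the corresponding count was 2 members, Top2a and Cenpf, where 3.76% of all genes lay lower without overlap. The comparisons with NS share the NS libraries, and both means share the sorbitol libraries, so they are not separate evidence of a common direction.

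**Figure D3:**
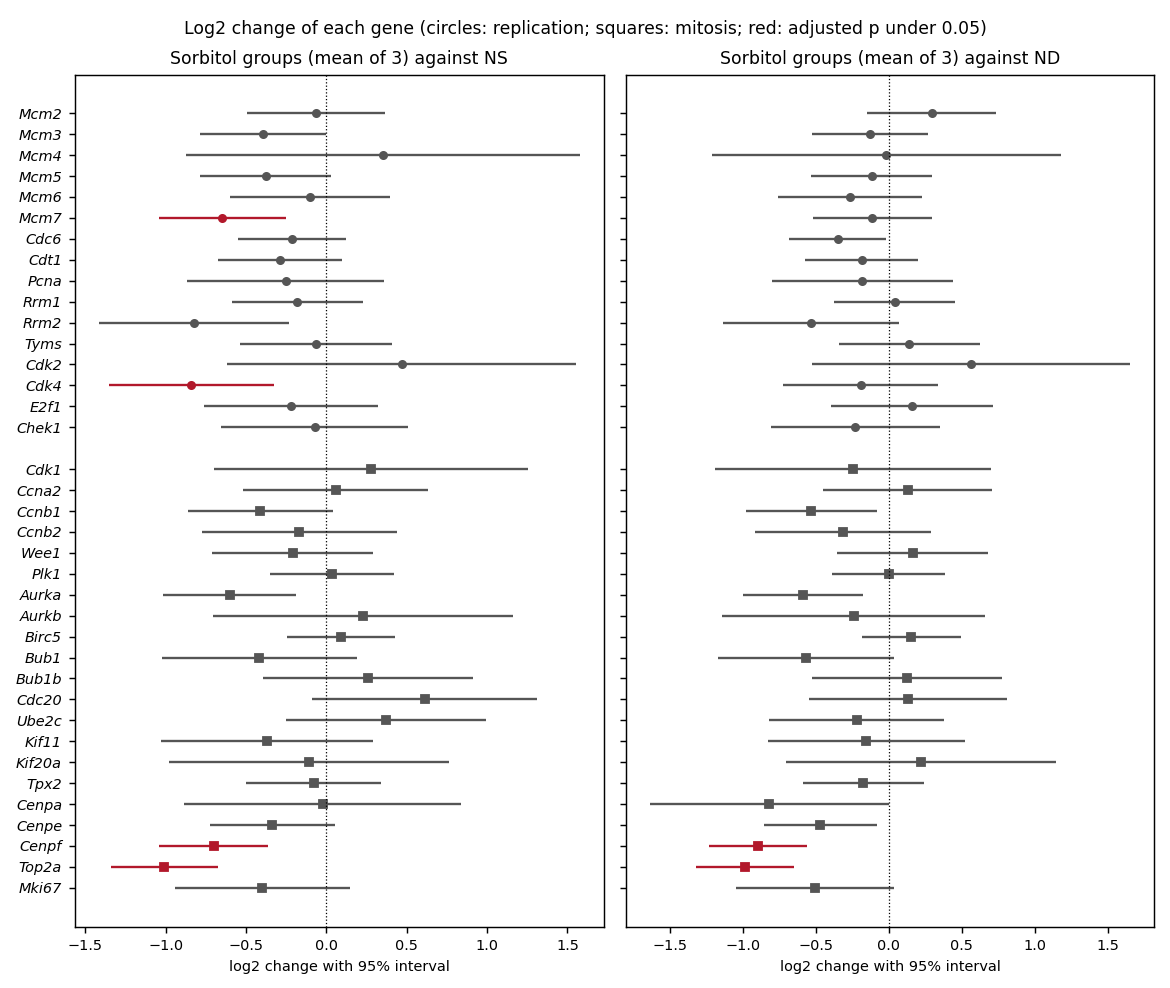
Each point is a gene's log2 change between the mean of the 3 sorbitol groups and NS (left) or ND (right), with its 95% interval; red marks an adjusted p under 0.05. Top2a and Cenpf are red in both panels, at -1.01 and -0.70 against NS and -0.99 and -0.89 against ND, and Mcm7 and Cdk4 in the left panel alone.

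Dose by dose, 0 of 37 members passed at 200 mM in edgeR's test, where 0.586% of all genes passed. At an unadjusted p under 0.05 there were 4 (Top2a, Cdk4, Mcm7 and Aurka, all lower, against 11.0% of all genes), and DESeq2 called 1, Top2a (adjusted p = 0.0490, range over its 14 alternatives 0.0490 to 0.834). Since the replicate numbers paired NS with 200 mM, the fit with a replicate block is given as well. It called 268 genes in place of 55, and 0 members, with an adjusted p of 0.0592 for Top2a.

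At 250 mM 2 members passed, both lower, where 4.47% of all genes passed and 2.46% were lower. At 300 mM 2 passed, both lower, where 7.89% of all genes passed and 4.66% were lower. Top2a and Cenpf were the genes in both cases. In 8 members at 250 mM and 8 at 300 mM all 3 sorbitol libraries lay below all 3 NS libraries, where 14.1% and 14.7% of all genes did. Top2a, Cenpf, Cenpe, Aurka, Rrm2 and Mcm3 were among the 8 at both doses, joined by Mcm5 and Ccnb2 at 250 mM and by Cdc6 and Ccnb1 at 300 mM. At 200 mM 2 members did so, Top2a and Cenpf, where 6.28% of all genes did. No member lay higher without overlap at 200, 250 or 300 mM, where 6.08%, 13.9% and 13.1% of all genes did.

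Without NS 3, the calls against NS grew to 7 members at 250 mM, at 300 mM and for the mean, 4 lower (Top2a, Cenpf, Mcm7 and Cdk4) and 3 higher, while the share of all genes called grew to 14.6%, 15.4% and 17.3%. The 3 higher were Cdk1, Cdc20 and Ube2c. At 250 mM without NS 3 their log2 changes were 1.71, 1.43 and 1.19 (adjusted p = 0.0218, 0.0229 and 0.0261), against 0.41, 0.84 and 0.66 with all NS libraries, none of which passed. Without NS 3, 2 members passed at 200 mM, Cdk4 and Mcm7, both lower, where 1.54% of all genes passed and 0.649% were lower. With NS 3 as the only control 0 members passed in any comparison with NS.

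In the trend across 200, 250 and 300 mM, which uses no control library, 0 of 37 members passed in edgeR's test and 0 in DESeq2, where 0.101% of 8928 genes passed in edgeR. With a replicate block 0 members and 1.24% of all genes passed. Cenpe, Top2a and Cenpf had negative slopes and Ube2c a positive slope at an unadjusted p under 0.05, 4 of 37 where 11.5% of all genes reached it. The slopes per 50 mM were -0.38 ± 0.11 on the log2 scale for Cenpe (adjusted p = 0.219), -0.32 ± 0.10 for Top2a (0.234), -0.30 ± 0.11 for Cenpf (0.301) and 0.36 ± 0.16 for Ube2c (0.421). Cenpe encodes the kinesin that carries chromosomes to the spindle equator. It had 120, 103 and 137 CPM in NS, 145, 99.1 and 150 in ND, 161, 104 and 130 at 200 mM, 90.6, 81.0 and 76.8 at 250 mM, and 78.9, 80.0 and 76.5 at 300 mM. The 6 libraries of the higher doses lay below the other 9, and neither dose passed against NS (log2 change -0.53 ± 0.23 and -0.61 ± 0.23, adjusted p = 0.188 and 0.113).

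Removal of LIF without sorbitol moved no member past the threshold. Of 9390 genes 3 passed in ND against NS (0.0319%), and 0 of 37 members did in edgeR's test or in DESeq2. A single member, Mcm7, had an unadjusted p under 0.05 (log2 change -0.53 ± 0.24), where 6.39% of all genes did. Cenpa, the histone H3 variant that marks centromeres, had the largest change, 0.79 ± 0.50 with an adjusted p of 0.814. Its levels were 61.1, 83.6 and 280 CPM in NS and 125, 370 and 241 CPM in ND, and 63.7, 150 and 174 at 200 mM, 160, 202 and 158 at 250 mM, and 86.5, 134 and 138 at 300 mM. The groups overlapped throughout, and replicate 1 was the lowest in 4 of the 5 groups.

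As lists, the replication genes had a median log2 change of -0.22 and the mitosis genes of -0.11 for sorbitol against NS, beside -0.01 over all tested genes. Negative changes numbered 14 of 16 replication genes and 13 of 21 mitosis genes, where 51.1% of all genes were negative. Against ND the medians were -0.12 and -0.24, with 11 of 16 and 15 of 21 negative, where 51.0% of all genes were. For ND against NS they were -0.21 and 0.12, with 12 of 16 and 7 of 21 negative, where 50.6% were. The SD of the median between single libraries of a group was 0.14 for replication genes and 0.26 for mitosis genes. The mitosis medians were smaller in size than their SD, as was the replication median of -0.12, while those of -0.22 and -0.21 were larger. Such an SD is not the error of a difference between group means, and the list medians were not tested. Without NS 3 the mitosis median against NS was 0.06 in place of -0.11, and with NS 3 as the only control it was -0.49.

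**Figure D4:**
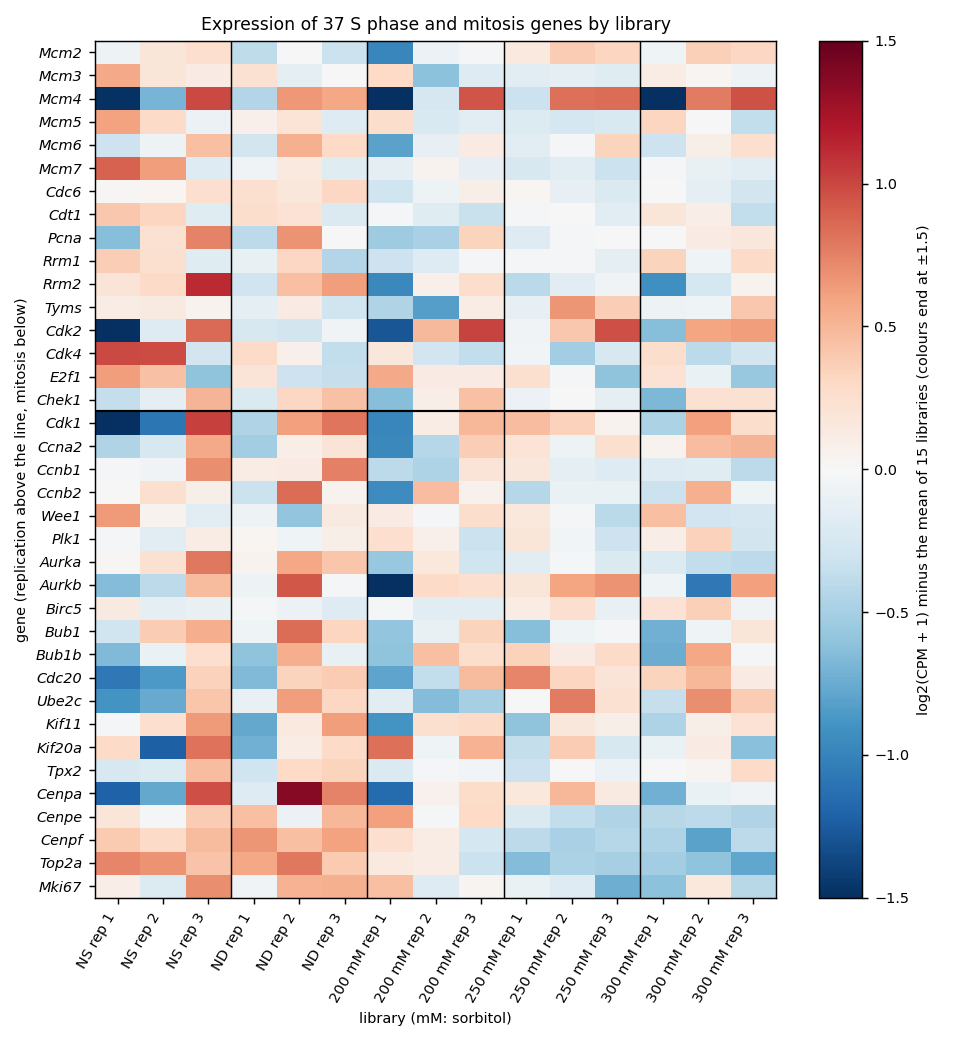
Colours show log2(CPM + 1) of each of the 37 genes (rows) in each library (columns) minus the gene's mean over the 15 libraries, with replication genes above the black line. Top2a and Cenpf are blue in replicate 3 at 200 mM and in all libraries at 250 and 300 mM, and Mcm4, Cdk2 and Cdk1 are dark blue in NS 1.

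Among the other helicase genes, Mcm2, Mcm3, Mcm4, Mcm5 and Mcm6, no change passed in the 7 comparisons. Group means ran from 154 to 232 CPM for Mcm2, 280 to 389 for Mcm3, 141 to 208 for Mcm4, 231 to 334 for Mcm5 and 206 to 280 for Mcm6. Mcm4 differed more within groups than between them, with 50.2, 87.2 and 285 CPM in NS and 47.9, 244 and 277 CPM at 300 mM. Replicate 1 was its lowest library in all 5 groups, as it was for Mcm2, Mcm6, Pcna and Rrm2, so 5 of 16 replication genes did so where 7.86% of all genes did. Among the mitosis genes Ccnb2, Bub1, Kif11 and Tpx2 did so, 4 of 21.

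For licensing and the fork, Cdt1, the partner of Cdc6 in helicase loading, had group means of 250 to 325 CPM. Pcna, the sliding clamp of the DNA polymerases, had 35.4 to 46.8 CPM, and how reads shared with its pseudogenes were counted is not given in the sources used here. Their log2 changes for sorbitol against NS were -0.29 ± 0.18 and -0.25 ± 0.29. Neither passed in any comparison.

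None of the genes of nucleotide supply passed for sorbitol against NS. Rrm2, the regulated subunit of ribonucleotide reductase, had 97.0, 104 and 185 CPM in NS, 68.6 to 131 in ND and 42.8 to 101 with sorbitol. Its sorbitol mean was 0.564 of NS (log2 change -0.83 ± 0.28, adjusted p = 0.0755), and the libraries overlapped at 200 mM alone. Rrm1, the large subunit of the same enzyme, had a change of -0.18 ± 0.19, and Tyms, the thymidylate synthase, of -0.07 ± 0.22.

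Of the regulators of S phase entry, Cdk2, the kinase that fires replication with cyclins E and A, had the widest spread of all members, with a highest library 10.4 times its lowest. It had 8.60, 38.2 and 79.4 CPM in NS and 17.4 to 89.0 CPM with sorbitol, which overlapped. E2f1, a transcription factor of replication genes, had group means of 145 to 194 CPM and Chek1, the checkpoint kinase that guards stalled forks, of 40.7 to 49.8 CPM. E2f1 and Cdk4 were highest in replicate 1 of all 5 groups. None of Cdk2, E2f1 and Chek1 passed in any comparison.

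The kinase and cyclins of mitotic entry did not pass with all libraries. Cdk1, the mitotic kinase, had 94.6, 156 and 675 CPM in NS, 242 to 579 in ND, 168 to 469 at 200 mM, 345 to 457 at 250 mM and 238 to 511 at 300 mM. NS held both its lowest libraries and its highest. Ccna2, the cyclin of S and G2 phase, had group means of 103 to 156 CPM, and the mitotic cyclins Ccnb1 and Ccnb2 had 152 to 233 and 59.0 to 82.7 CPM. For Ccnb1 the log2 change was -0.41 ± 0.21 against NS and -0.53 ± 0.21 against ND (adjusted p = 0.243 and 0.126). Wee1, which holds Cdk1 inactive, had group means of 45.8 to 59.3 CPM.

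Among the mitotic kinases, Aurka, which acts at centrosomes and spindle poles, came closest to the threshold. It had 269, 314 and 462 CPM in NS, 277, 401 and 357 in ND, 179, 298 and 217 at 200 mM, 238, 262 and 230 at 250 mM, and 232, 207 and 204 at 300 mM. The 250 and 300 mM libraries lay below all 6 libraries without sorbitol, and 200 mM replicate 2 overlapped them. Its log2 change was -0.60 ± 0.20 against NS and -0.59 ± 0.20 against ND (adjusted p = 0.0642 and 0.0659), and without 200 mM replicate 2 both passed (0.0347 and 0.0322). Plk1, the polo-like kinase, had group means of 447 to 485 CPM and a change against NS of 0.04 ± 0.18, with a 95% interval from -0.35 to 0.42. Aurkb and Birc5, of the chromosomal passenger complex, had 15.3 to 24.4 and 815 to 998 CPM, and Birc5 varied least of all members, with a highest library 1.46 times its lowest.

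For the spindle checkpoint, Bub1 had group means of 24.2 to 38.0 CPM and Bub1b of 74.1 to 96.6 CPM, with log2 changes against NS of -0.42 ± 0.29 and 0.26 ± 0.31. For the anaphase-promoting complex, its activator Cdc20 had 75.3 ± 43.9 CPM in NS and 134 ± 27.0 CPM at 250 mM (SD, n = 3), and its ubiquitin-conjugating enzyme Ube2c had 287 ± 156 and 453 ± 132 CPM. NS 3 was the highest NS library for both, with 126 and 467 CPM, inside the range of the 250 mM libraries. The spindle motors Kif11 and Kif20a had 36.7 to 48.3 and 6.70 to 11.1 CPM, and Tpx2, which activates Aurora A on the spindle, had 122 to 147 CPM. Kif20a reached down to the floor of 3 counts in NS 2 (2.73 CPM). Mki67, which coats mitotic chromosomes and marks dividing cells, had 41.5 ± 14.0 CPM in NS and 28.9 ± 8.67 CPM at 300 mM. Its log2 change against NS did not pass at 300 mM (-0.52 ± 0.32, adjusted p = 0.341) or for the sorbitol mean (-0.40 ± 0.26, adjusted p = 0.357).

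Other genes of the same processes were taken from lists of 70 mitosis genes and 56 replication genes, of which 66 and 49 were tested. At 200 mM and in ND none of either list passed in edgeR's test or in DESeq2. At an unadjusted p under 0.05 there were 7 mitosis and 3 replication genes at 200 mM, where 11.0% of all genes reached that level, and 1 and 2 in ND, where 6.39% did. For the mean against NS the median log2 change was -0.24 for the mitosis list and -0.17 for the replication list, beside -0.01 for all tested genes. Of the 66 mitosis genes 4 fell at 250 mM, where 2.46% of all genes fell. At 300 mM 5 fell and 1 rose, where 4.66% of all genes fell and 3.23% rose. For the mean against NS 7 fell and 1 rose, where 5.45% fell and 3.32% rose, and for the mean against ND 6 fell and 1 rose, where 5.85% fell and 4.62% rose. Sgol2, a shugoshin that protects centromeric cohesion, had 215 ± 63.9 CPM in NS, 186 ± 10.4 in ND, 139 ± 56.2 at 200 mM, 89.7 ± 15.8 at 250 mM and 67.5 ± 9.44 at 300 mM (SD, n = 3). Its fall against NS at 300 mM (log2 change -1.67 ± 0.30, adjusted p = 0.00455) passed in 14 of 14 alternatives, and that of the mean against ND (-0.98 ± 0.23, 0.0115) in 18 of 19.

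Ckap5, which promotes microtubule growth, had 86.2 ± 19.8 CPM in NS, 90.2 ± 29.9 in ND and 32.5 ± 1.84 at 300 mM. Its log2 change was -1.41 ± 0.27 at 300 mM and -1.02 ± 0.21 for the mean against ND (adjusted p = 0.00643 and 0.00454), which passed in 12 of 14 and 18 of 19 alternatives. Kif20b, a kinesin of cytokinesis, and Incenp, the scaffold of the chromosomal passenger complex, fell at 250 mM (-1.18 ± 0.29 and -0.98 ± 0.25), each passing in at most 7 of 14 alternatives. Zwilch, of the kinetochore, fell in the mean against NS (-0.85 ± 0.22, 16 of 20 alternatives), and Cdca2, which directs a phosphatase to anaphase chromosomes, in the mean against ND (-0.86 ± 0.22, 18 of 19). Mybl2, a transcription factor that activates mitosis genes, went up, from 171 ± 38.5 CPM in NS and 130 ± 47.0 in ND to 340 ± 60.7 at 300 mM. Its log2 change was 0.99 ± 0.28 at 300 mM (5 of 14 alternatives) and 1.21 ± 0.24 for the mean against ND (19 of 19).

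Of the other replication genes, Chaf1b, a subunit of the factor that places histones on new DNA, fell at 250 mM (-1.53 ± 0.39) and 300 mM (-2.02 ± 0.40, adjusted p = 0.00757). It had 157, 111 and 46.4 CPM in NS, 80.9, 47.7 and 77.2 in ND, 58.7, 57.5 and 37.6 at 200 mM, 29.3, 31.0 and 49.9 at 250 mM, and 34.3, 20.2 and 22.1 at 300 mM. The 300 mM libraries lay below all others but those of 250 mM, and NS 3 lay below the ND libraries. The call at 300 mM passed in 12 of 14 alternatives and that at 250 mM in 6 of 14, and without NS 1 the changes were -1.60 and -1.11. With NS 3 as the only control they were -0.79 at 300 mM and -0.31 at 250 mM, and neither passed (adjusted p = 0.456 and 0.851). For the mean against NS the genes that fell included Chaf1b, Pold1, the catalytic subunit of DNA polymerase delta, and Clspn, which relays the fork checkpoint. The Pold1 change was -1.01 ± 0.30 with all NS libraries and 0.15 with NS 3 alone, and it passed in 10 of 20 alternatives. Against ND 0 of the 49 fell in edgeR's test (7 were lower at an unadjusted p under 0.05, where 13.4% of all genes were) and 1 rose, where 4.62% of all genes did. It was E2f2, a transcription factor of the E2F family (0.91 ± 0.25, adjusted p = 0.0290), and the call was lost without ND 2 (0.138) or ND 3 (0.130). E2f2 had 26.3 ± 1.36 CPM in NS and 13.2 ± 5.38 in ND. At 200, 250 and 300 mM it had 22.8 ± 2.82, 25.4 ± 2.86 and 29.8 ± 3.24 CPM (SD), near the NS level, so ND alone stood low.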

How the data were processed

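Cells were lysed in Trizol and libraries were made with Lexogen's QuantSeq 3' kit, per the labels' protocols. The submitters' processing notes name CASAVA 1.8.2, STAR, HTSeq, edgeR and the mouse build mm9. No source used here gives the other versions, the annotation or the strand setting, so reads from overlapping antisense genes cannot be told apart. The deposited counts, whole numbers per gene, were the input of every test here, and 4 tables that share the NS libraries were joined on gene symbol. The authors' log2 change and FDR (an adjusted p-value) were copied only where the deposited table is named. In the tables Mcm2 carries the Ensembl identifier of Mcm7, Cdk4 that of Defb1, and E2f1 shares its identifier with Rbp3, so these genes rest on their symbols.

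A single fit over the 15 libraries estimated each group's level without a block (edgeR 4.0.16 in R 4.3.3, glmQLFit and glmQLFTest, TMM, filterByExpr with a minimum count of 10 and total of 15, Benjamini-Hochberg over 9390 genes at 0.05). The trend was fitted on the 9 sorbitol libraries. The SE is the absolute log2 change over the square root of F, and CPM errors are SDs over 3 libraries. Within groups, chi-square per degree of freedom between libraries was 2.64 to 33.6, so none was a duplicate. The floor of 3 counts covers counting error only, while SEs and 95% intervals come from the fit and include the spread between libraries. Depth limits the precision of low genes.

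Deviations from group means correlated above 0.1 in 24 of 30 same-number pairs, and in all 3 pairs for 4 of 10 group pairings. The 200 mM libraries paired by number to NS (0.69, 0.12, 0.63), to ND (0.63, 0.48, 0.54) and to 250 mM (0.34, 0.16, 0.20), as did the 250 to the 300 mM libraries (0.45, 0.21, 0.30). The pairing comes from these correlations, not from the labels. Alternatives were DESeq2 1.42.0, RLE factors, library totals, no filter, the block, the groups compared alone, replicates 2 and 3 alone, and each library left out.

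Members and lists were chosen with earlier results of these data known. Values per library are given for members past the threshold and for the largest change in each of the 7 comparisons with at least 20 CPM. Of the wider lists, up to 3 genes per direction and comparison past the threshold with at least 20 CPM are named. Other library values were added after values were seen. A result of the wider replication list is not reported here. Promoters came from RefSeq (GRCm38.p6), whose coordinates were not compared with the files' build.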

Additional observations from a re-analysis of the deposited data

How the results depend on the processing

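No member passed as higher in any of the 7 comparisons under DESeq2, RLE factors, library totals, no filter, the groups compared alone or replicates 2 and 3 alone. Of 4430 recomputed values of single genes, 4247 stayed on the same side of the threshold, 142 lost a call, 38 gained one, and 3 turned from a called fall to a rise. The cause of these moves was not tested. Most of the 4430 values were of changes not called with all libraries, which had no call to lose. Changes called with all libraries were less stable. They ranged from Cenpf at 250 mM, which passed in 4 of 14 alternatives, to changes such as Sgol2 at 300 mM (14 of 14). An alternative chosen after seeing the data, NS 3 as the only control (1 library, assumed to vary like the other groups), turned Mcm7 to 0.093, Cdk4 to 0.146 and Pold1 to 0.145 in the sorbitol mean. It called 0 genes for ND, 4 at 200 mM, 10 at 250 mM, 32 at 300 mM and 24 for the mean, with 0 members in each, in place of 3, 55, 420, 741 and 824 genes with 0, 0, 2, 2 and 4 members. The mitosis medians became -0.205, -0.545, -0.655, -0.629 and -0.492, and the replication median at 300 mM -0.019.

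The replicate block called 40 genes for ND, 268 at 200 mM, 1683 at 250 mM, 1869 at 300 mM, 2015 for the mean against NS, 1830 for the mean against ND and 111 in the trend. It called 6 of 37 members at 250 mM, at 300 mM and for each mean. Of all genes 17.9% passed at 250 mM, 19.9% at 300 mM, 21.5% for the mean against NS and 19.5% for the mean against ND. Cdc20 (higher), Cdk4, Mcm7 and Rrm2 were added at 250 mM, Aurka, Cdk4, Cenpe and Rrm2 at 300 mM, Aurka and Rrm2 for the mean against NS, and Aurka, Bub1, Cenpa and Rrm2 for the mean against ND. By the correlations given above the numbers pair the libraries, above 0.1 in all 3 replicates, in 4 of 10 pairs of groups. These enter the means and the trend beside pairs of groups that missed this cut in some replicate. For NS with ND the correlations in replicates 1, 2 and 3 were 0.587, 0.07 and 0.462. For NS with 250 mM they were 0.287, -0.079 and 0.197, and with 300 mM 0.585, -0.149 and 0.472. Replicate 2 alone missed the cut there, so a replicate effect may also enter these comparisons. DESeq2 called 26 genes for ND, 161 at 200 mM, 742 at 250 mM and 70 in the trend, and 1 member at 200 mM. Without a filter the counts were 37, 161, 825 and 148. RLE factors gave 1 gene for ND. Library totals gave 0 genes in the trend and 1 member at 250 mM, and there turned the majority of all calls to higher (205 of 372, against 189 of 420). The groups compared alone gave 0 genes for ND, 1 at 200 mM, 462 at 300 mM and 1 member at 250 mM. Replicates 2 and 3 alone gave 0, 4, 28, 116 and 127 genes against NS, 404 against ND and 27 in the trend, and 0 members at 250 mM, 1 at 300 mM and 1 for the mean.

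With 1 library left out, genes called ranged from 0 to 74 for ND, 12 to 150 at 200 mM, 84 to 1413 at 250 mM, 210 to 1500 at 300 mM, 226 to 1680 for the mean against NS, 537 to 1120 for the mean against ND and 0 to 41 in the trend. Members called ranged from 0 to 2 at 200 mM and from 1 to 7 at 250 mM, at 300 mM and for the mean against NS, each highest without NS 3. The mitosis median at 250 mM ranged from -0.274 to 0.043. Depth limits the members with few counts: Kif20a, Aurkb, Bub1, Mki67, Kif11, Pcna and Chek1 had all group means under 50 CPM, where 3 counts are 1.42 to 3.58 CPM.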
